A study of Mus musculus with 15 samples.

Results

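Transcripts of 7 genes that mark lymphatic vessels or high endothelial venules were described across 15 mouse mammary tumours and against the B cell transcripts of the same tumours. The 7 genes were Prox1, Flt4, Lyve1, Pdpn and Reln for lymphatic vessels, and Chst4 and Madcam1 for high endothelial venules. They were taken as all non-control probes carrying one of these names in the array files, which gave 13 probes of 7 genes. Of these genes, 5 (Prox1, Lyve1, Pdpn, Reln and Chst4) were well above background on 7 or more of the 15 arrays and were tested among the 22342 genes tested. Flt4 was well above background on 6 arrays and Madcam1 on 0, and both are given by their values.

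Lymphatic vessels drain fluid and leukocytes from tissue to the lymph nodes. Their endothelium is set apart from that of blood vessels by the transcription factor Prox1, and it grows toward the ligand Vegfc through the receptor Flt4 (VEGFR3). High endothelial venules are the blood vessels through which lymphocytes leave the circulation in lymphoid tissue, where sulfated sugars on their surface are bound by receptors of the lymphocytes and where lymphotoxin from lymphocytes maintains the vessel type. They can also form in inflamed tissue and in tumours that hold aggregates of B and T cells.

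The tumours arose in MMTV-PyMT mice, in which the MMTV promoter drives the polyoma middle T oncogene mainly in mammary epithelium. There were 8 tumours from mice on the B6 (C57BL/6) background and 7 from Wsh mice, all aged 20 weeks and kept free of specific pathogens. Wsh is the usual name for the Kit W-sh inversion allele, whose homozygous carriers lack mast cells as adults. The groups also differ in that allele itself. Each sample was 1 Agilent 1-colour array of total RNA from 1 tumour. Whether some tumours came from the same mouse is not in the labels, and the p-values cover only the spread among these arrays.

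Values are log2 processed signals minus the 75th percentile of the same array, so a difference of 1 is a doubling, and each probe has its own scale. Between 55.7% and 73.4% of spots were well above background in B6, and 58.8% to 70.8% in Wsh. The arrays lay on a pair of slides, with 4 B6 and 4 Wsh arrays on slide 1 and 4 B6 and 3 Wsh arrays on slide 2. Luminal epithelial genes, the defining markers of these tumours, were present, and all 7 on the list (Cdh1, Cldn7, Elf5, Epcam, Krt18, Krt19 and Krt8) were well above background on 15 of 15 arrays. The number of arrays limits the precision. In bulk tissue, fewer cells of a type and less RNA per cell cannot be told apart.

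The high endothelial venule genes rested on 1 probe each, and their probe sequences are shown because these dim signals decide what could be measured. Both are 60 bases long and are printed as the array files give them.
Chst4 probe: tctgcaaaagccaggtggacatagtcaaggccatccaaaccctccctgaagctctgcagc
Madcam1 probe: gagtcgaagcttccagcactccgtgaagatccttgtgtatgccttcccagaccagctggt
The Chst4 probe lies at chr8:112554079-112554138 on the minus strand, and the Madcam1 probe is given as chr10:79127883-79128194 on the plus strand, a span of 312 bases for a probe of 60. These positions are of build mm9 as the files state them, and they were not placed in exons or UTRs here. Of the lymphatic genes, Lyve1 was measured by 1 probe at chr7:117994171-117994230 on the minus strand. Pdpn had 1 probe at chr4:142857423-142857482 on the minus strand, and Flt4 had 1 at chr11:49465646-49465705 on the plus strand. Prox1 had 2 probes, of which that at chr1:191943668-191943727 on the minus strand was brighter and stands for the gene. Reln had 6 probes, of which that at chr5:21390477-21390536 on the minus strand stands for the gene, since it was well above background on 15 arrays against 10, 2, 2, 0 and 0 for the others.

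Prox1, the transcription factor that sets lymphatic endothelial identity, was well above background on all 15 arrays. Its lowest, median and highest values were -3.68, -3.18 and -2.32 in B6 and -3.07, -2.72 and -2.51 in Wsh. The Wsh arrays lay in the upper part of the B6 range, while 4 of the B6 arrays lay below every Wsh array. Flt4, the receptor for Vegfc, had values of -6.30, -5.52 and -4.18 in B6 and -6.07, -5.43 and -4.64 in Wsh. It was well above background on only 3 B6 and 3 Wsh arrays, and its values above and below background overlapped between the groups. Flt4 was lower on slide 2 in both groups. Its B6 and Wsh means were -5.10 and -4.99 on slide 1 and -5.82 and -5.78 on slide 2. On slide 1 it was well above background on 2 of 4 B6 and 3 of 4 Wsh arrays, and on slide 2 on 1 of 4 and 0 of 3.

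Lyve1, a hyaluronan receptor of lymphatic endothelium that some tissue macrophages also carry, varied most among the members. Its lowest, median and highest values were -3.58, -1.06 and 0.02 in B6 and -3.54, -1.79 and 0.68 in Wsh. The lowest arrays were B6 replicate 3 and Wsh replicate 2, and the highest were Wsh replicate 1 and B6 replicate 7, so that each group held both ends of the range. The span over all 15 arrays was 4.26 on the log2 scale, or 19.2-fold, and its SD ranked at percentile 96.8 of all genes tested.

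Pdpn, the mucin-type glycoprotein podoplanin of lymphatic endothelium, fibroblasts and myoepithelial cells, was bright on all arrays. Its values were 1.52, 2.13 and 3.1 in B6 and 1.69, 2.34 and 3.12 in Wsh. Reln, the secreted glycoprotein reelin, which lymphatic endothelium also makes, ran from -3.41 over a median of -1.06 to 0.40 in B6 and from -2.31 over -1.56 to 0.20 in Wsh. The same pair of arrays, B6 replicate 3 and Wsh replicate 5, held the highest values of both genes in their groups. Wsh replicate 6 held the lowest Wsh value of both. Reln spanned 3.81 on the log2 scale, or 14.0-fold, and its SD ranked at percentile 95.2, while Pdpn spanned 1.60, or 3.03-fold.

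Chst4, the sulfotransferase that adds sulfate to the surface sugars of high endothelial venules, was well above background on 5 B6 and 3 Wsh arrays. Its values were -6.31, -4.83 and -4.70 in B6 and -5.28, -4.89 and -4.60 in Wsh. B6 replicates 3 and 4, at -6.14 and -6.31, lay below all other arrays, and neither was well above background there. Madcam1, the mucosal addressin bound by the integrin of Itga4 and Itgb7, was well above background on 0 of 15 arrays, with values of -8.43, -7.44 and -6.83 in B6 and -7.72, -7.37 and -7.00 in Wsh.

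**Figure D1:**
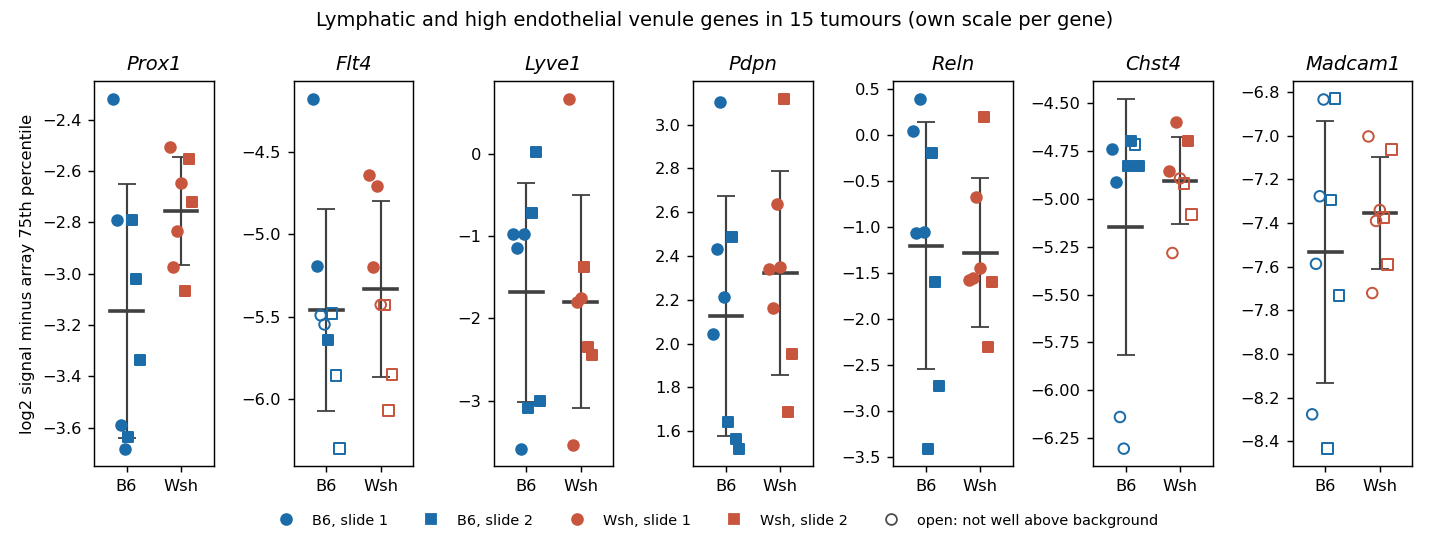
Log2 signal minus the array's 75th percentile (vertical axis, own scale per gene) for each of the 7 genes in the 8 B6 and 7 Wsh tumours; bars show mean ± SD, circles slide 1, squares slide 2, and open symbols arrays where the probe was not well above background. The groups overlap for every gene, and the widest spans are those of Lyve1 (4.26) and Reln (3.81).

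The first comparison asked whether the vessel genes differed between tumours with and without the Wsh allele, and none of the 5 tested did past the threshold. In limma with Benjamini-Hochberg adjustment over all genes, 0 of 5 members passed at adjusted p 0.05, against 0.336% of all genes (75 of 22342), and at an unadjusted p under 0.05 the counts were 0 of 5 members and 2317 of all genes. Prox1 came nearest. Its B6 mean was -3.15 ± 0.49 (SD, n = 8) and its Wsh mean -2.76 ± 0.21 (SD, n = 7). The Wsh minus B6 difference was 0.39 (SE 0.19, limma adjusted p = 0.516), and the second Prox1 probe gave 0.19 (SE 0.22, limma adjusted p = 0.810). The differences were -0.12 for Lyve1 (SE 0.63, limma adjusted p = 0.972) and 0.19 for Pdpn (SE 0.25, limma adjusted p = 0.854). For Reln the difference was -0.08 (SE 0.54, limma adjusted p = 0.976), while its next brightest probe gave 0.53 (SE 0.46, limma adjusted p = 0.718). The Chst4 difference was 0.24 (SE 0.25, limma adjusted p = 0.811). With no filter on dim probes, Flt4 differed by 0.13 (SE 0.29, limma adjusted p = 0.973). No difference is given for Madcam1, since neither group had it well above background. The Lyve1, Pdpn, Reln and Chst4 differences changed sign between slides. The reversed values were 0.07 for Lyve1 and -0.08 for Pdpn on slide 1, and 0.75 for Reln and -0.13 for Chst4 on slide 2. The count over all genes ran from 25 without B6 replicate 5 to 76 without B6 replicate 7.

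The partner genes of these vessels gave no call in that comparison either. Of 19 lymphatic partners tested, 0 passed in limma (1 at an unadjusted p under 0.05) and the median difference was 0.05, with the lowest limma adjusted p = 0.337 for Ccbe1, a factor needed to activate Vegfc (-0.69). Of 23 genes of high endothelial venules and lymphoid stroma, 0 passed in limma (0 at an unadjusted p under 0.05), with a median difference of 0.38 and the lowest limma adjusted p = 0.496. The median over all genes was -0.01.

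The second comparison set each gene against a B cell score, the mean of 11 measured B cell genes (among them Spib, Ms4a1 and Cd79b) after each was centred over the 15 arrays. The B6 scores ran from -2.63 to 2.04 and the Wsh scores from -2.20 to 3.06. It fell into a pair of clusters, with 7 arrays from -2.63 to -1.26 and 8 arrays from 0.83 to 3.06, so no pooled correlation with it is given. In limma with the group held, 0 of 5 members had a slope on the score past the threshold, against 4.41% of all genes (985 of 22342), with 0 members and 4433 of all genes at an unadjusted p under 0.05. The slopes, in log2 per unit of score, were 0.26 for Lyve1 (SE 0.14, limma adjusted p = 0.333) and 0.08 for Prox1 (SE 0.04, limma adjusted p = 0.328). They were -0.10 for Pdpn (SE 0.06, limma adjusted p = 0.366), -0.08 for Reln (SE 0.13, limma adjusted p = 0.778) and 0.01 for Chst4 (SE 0.06, limma adjusted p = 0.947). With no filter the Flt4 slope was 0.07 (SE 0.07, limma adjusted p = 0.770). The all-gene count ran from 621 without Wsh replicate 1 to 1097 without Wsh replicate 7, and 0 of 5 members passed in each case.

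**Figure D2:**
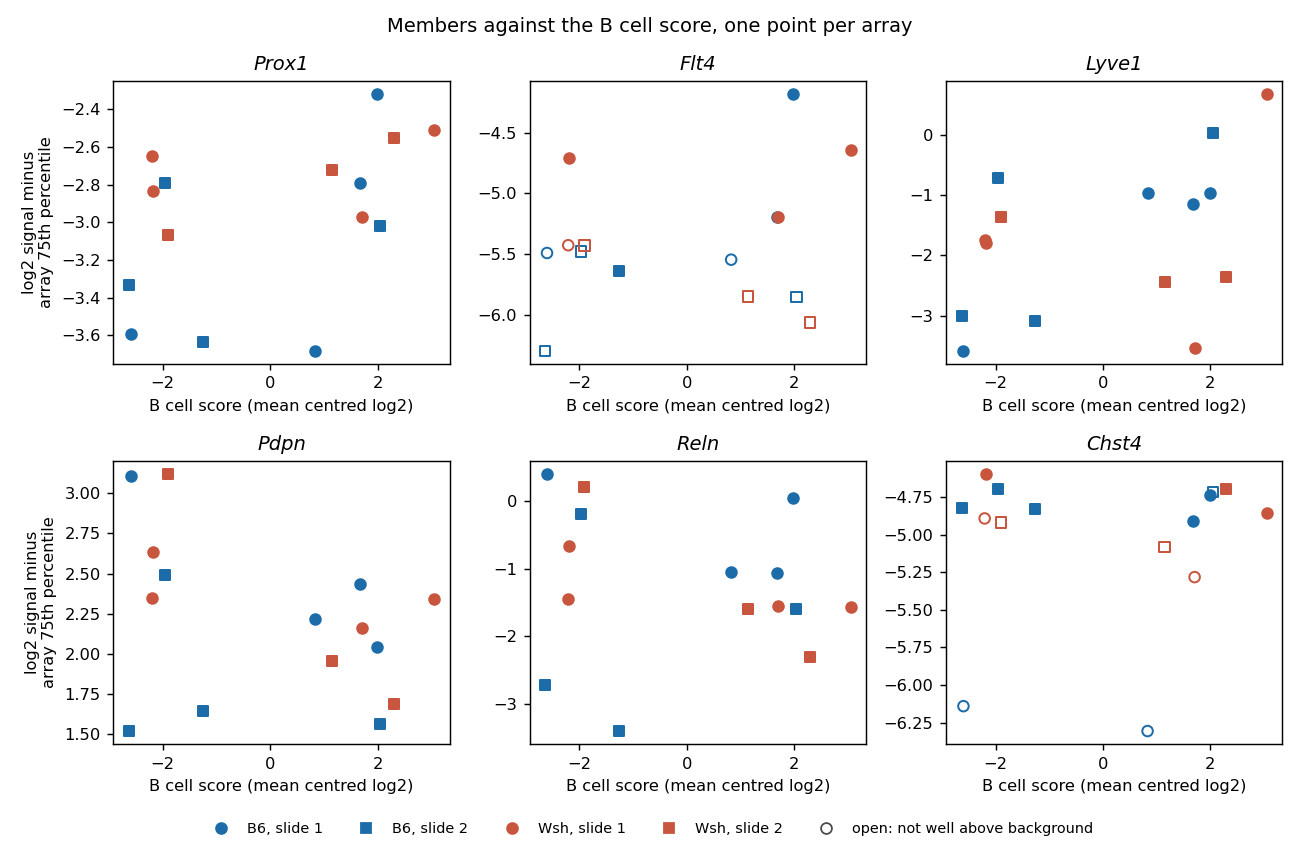
Log2 signal minus the array's 75th percentile (vertical axis) against the B cell score (horizontal axis, mean centred log2) for 6 members, 1 point per array, with colours for the groups, circles and squares for the slides and open symbols for probes not well above background. The score leaves a gap between -1.26 and 0.83, and each member's values on the left of the gap overlap those on its right.

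With the score held, the Wsh minus B6 difference of Prox1 was 0.35 (SE 0.18, limma adjusted p = 0.508), and 0 of 5 members passed, against 0.398% of all genes (89 of 22342, with 2529 at an unadjusted p under 0.05 and 0 members among them). The slope itself was also compared between groups. That of Lyve1 was 0.48 (SE 0.20) in B6 and 0.05 (SE 0.19) in Wsh, a difference of -0.43 (SE 0.27, limma adjusted p = 0.99992). No gene passed in that limma test, 0% of 22342, and 535 had an unadjusted p under 0.05.

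Some genes on the list of high endothelial venules and lymphoid stroma did follow the score. Of 23 such genes, 10 were higher with a higher B cell score in limma and 0 lower. That share was 43.5%, beside 2.97% of all genes called upward (664 of 22342). The median slope was 0.12, beside -0.01 over all genes. Glycam1, a mucin that carries such sugars on these venules and that milk-producing mammary epithelium also secretes, had the steepest slope, 1.55 (SE 0.09, limma adjusted p = 6.31e-08). Its lowest, median and highest values were -3.11, 0.72 and 4.23 in B6 and -2.93, 1.70 and 4.96 in Wsh. The 5 other milk genes on a list had 0 calls in limma (1 at an unadjusted p under 0.05). Wsh replicate 1, with the highest Glycam1 value (4.96), had the lowest mean of that list, -1.37, while Wsh replicates 6 and 7, with Glycam1 at 4.65 and 3.85, had the highest, 2.73 and 2.24. The part of milk-producing cells in the Glycam1 values was not tested. The lymphotoxin genes Ltb and Lta, made by lymphocytes, had slopes of 0.74 (SE 0.05, limma adjusted p = 1.06e-07) and 0.62 (SE 0.07, limma adjusted p = 3.69e-05). Cxcl13, the chemokine that draws B cells into follicles, had a slope of 1.01 (SE 0.13, limma adjusted p = 0.000223). The remaining called genes were Ccl19, Fut7, Tnfsf14, Enpp2, Emcn and Ackr1. Among the genes not called were Gcnt1, B3gnt3, Podxl, Cd34, Selp and Vcam1. Their slopes were 0.09, -0.03, -0.04, 0.12, 0.11 and 0.12 (limma adjusted p = 0.372, 0.788, 0.367, 0.421, 0.255 and 0.254). Ltbr was lower with a higher score without passing (-0.07, limma adjusted p = 0.0568). Fut7, the fucosyltransferase that works on the same sugars as Chst4, had 0.38 (SE 0.07, limma adjusted p = 0.00309), while Chst2, the other sulfotransferase on the list, had 0.06 (limma adjusted p = 0.635). Fut7 is made by leukocytes as well as by the venules, and their parts in its level were not tested.

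The lymphocyte receptors that bind these vessels all had a positive slope. All 8 homing receptors on the list passed in limma, with a median slope of 0.45. The Cxcl13 receptor Cxcr5 had a slope of 1.40, the Ccl21 receptor Ccr7 0.74 and the Madcam1-binding integrin chain Itgb7 0.57. Among cell type lists, 10 of 12 T cell genes also passed. Of the B cell genes 10 of 11 passed, but they make up the score, so their calls are not independent of it. Named by the same rule, Spib, Ms4a1 and Cd79b stand for the B cell list and Cd3d, Cd5, Cd8b1 and Cd28 for the T cell list. Of 4 follicle genes, 2 passed (Cr2 1.41 and Fcer2a 1.25), and the other two, Clu and Mfge8, had slopes of -0.02 and -0.05. Of 5 plasma cell genes 3 passed (Mzb1 0.69, Jchain 0.69 and Irf4 0.66), and of 9 macrophage genes 2 (Timd4 1.06 and Cd68 0.16). Of 7 skeletal muscle genes 1 passed, Mb, which was lower with a higher score (-0.23). The calls of Cd68, Irf4, Jchain and Mb were lost without any one of 9, 10, 1 and 3 arrays. Wsh replicate 1 was among these each time, with limma adjusted p = 0.122, 0.121, 0.0656 and 0.0574 without it. The fibroblast, myoepithelium, luminal, milk and adipocyte lists had 0 calls in limma, with 2, 1, 4, 1 and 6 genes at an unadjusted p under 0.05.

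Within clusters, settings added after the data were seen and with fewer arrays in each, none of Glycam1, Ltb, Lta and Cxcl13 passed in limma. In both settings 0 of all 22342 genes passed, so the lack of a call is not particular to these genes. Over the 8 upper and the 7 lower arrays, the slopes were 1.03 and 1.22 for Glycam1 (limma adjusted p = 0.99981 in each) and 0.77 and 0.52 for Ltb (limma adjusted p = 0.140 and 0.99981). They were 1.15 and 0.077 for Lta (limma adjusted p = 0.0796 and 0.99981) and 1.55 and 1.64 for Cxcl13 (limma adjusted p = 0.505 and 0.99981).

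Of the 19 lymphatic partners tested, 2 were called higher with a higher score in limma, with a median slope of 0.03. That share was 10.5%, beside 2.97% of all genes called upward. Ccl21a, the chemokine of lymphatic endothelium and lymph node stroma that draws Ccr7-bearing cells, had values of -0.88, 1.29 and 2.44 in B6 and 1.04, 1.35 and 3.63 in Wsh. Its slope was 0.43 (SE 0.09, limma adjusted p = 0.0157). Without Wsh replicate 1, its highest array, the slope was 0.38 (limma adjusted p = 0.0621), and with the fibroblast mean held, an alternative added after the data were seen, it was 0.29 (limma adjusted p = 0.0784). Stab2, a scavenger receptor for hyaluronan, had a slope of 0.26 (SE 0.06, limma adjusted p = 0.0308). Neither gene passed within the upper or the lower arrays alone, where 0 of all 22342 genes did. The Stab2 call was lost without any one of B6 replicates 1, 3 and 7 or Wsh replicates 3 and 4 (slopes 0.26 to 0.27, limma adjusted p from 0.0565 to 0.0630), and under quantile normalization (0.24, limma adjusted p = 0.0698). The growth factors did not pass, with 0.03 for Vegfc (limma adjusted p = 0.749) and 0.32 for Vegfd (SE 0.11, limma adjusted p = 0.136). The Vegfc co-receptor Nrp2 gave -0.04 (limma adjusted p = 0.607) and the valve factor Foxc2 0.09 (limma adjusted p = 0.681). Of 13 blood endothelial genes, 3 passed in limma, namely Pecam1 (0.17), Plvap (0.15) and Tie1 (0.17, lost without Wsh replicate 1 at 0.16, limma adjusted p = 0.0598). That share was 23.1%, beside 2.97% of all genes called upward. At an unadjusted p under 0.05 in limma there were 12 of 13, beside 13 of 23 genes of high endothelial venules and lymphoid stroma. The median slopes of these lists were 0.15 and 0.12.

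**Figure D3:**
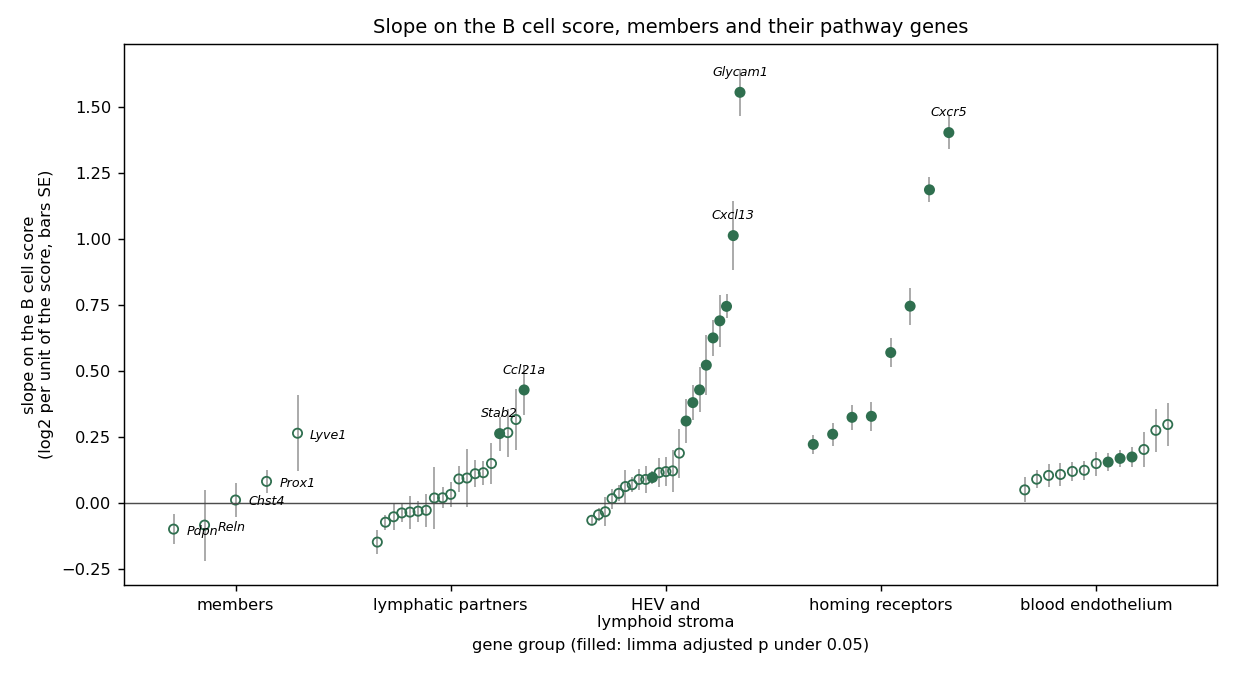
Slope on the B cell score in log2 per unit of score (vertical axis, bars SE) for the 5 tested members and the genes of 4 lists (horizontal axis), with filled points for limma adjusted p under 0.05. The members lie between -0.10 and 0.26 and are all open, 10 of 23 genes of high endothelial venules and lymphoid stroma are filled, and all 8 homing receptors are filled.

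The members were next set against the means of 15 marker lists over the 15 arrays, by Pearson r and Spearman rho with permutation tests of 100000 resamples. The B cell, fibroblast, adipocyte and skeletal muscle means fell into separate clusters and gave no pooled r. Of the remaining 66 relations, 6 had an adjusted permutation p of Pearson's r under 0.05. All of a list's genes and members share the RNA and scaling of the same arrays.

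Flt4 tended to be higher where the mean of the 19 lymphatic partners was higher, but 9 of its 15 values were not well above background, so most of the values and ranks in this relation are of dim signal. Its r with their mean was 0.77 (permutation p = 0.00105, adjusted permutation p = 0.0115) and its rho 0.72 (permutation p = 0.0033, adjusted permutation p = 0.0436). Without the 2 arrays farthest from the median, r was 0.65, and within slides it was 0.65 and 0.83. Without B6 replicate 8 the adjusted permutation p was 0.0536 (r = 0.70). Of the lymphatic partners 17 of 19 were well above background on all 15 arrays, and their B6 means lay from -0.65 to 0.41 and their Wsh means from -0.42 to 0.73. Prox1 had r = 0.44 with the same mean (adjusted permutation p = 0.360), and its highest r with a list whose arrays form no clusters was 0.61, with T cell genes (adjusted permutation p = 0.144).

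Lyve1 followed the lymphatic partners as well, with r = 0.79 (permutation p = 0.00046, adjusted permutation p = 0.00713) and rho = 0.78 (adjusted permutation p = 0.0216). Within slides r was 0.91 and 0.76, and without the 2 farthest arrays 0.69. Without Wsh replicate 1 the adjusted permutation p was 0.0606 (r = 0.69). It also followed blood endothelial genes, with r = 0.82 (permutation p = 0.0002, adjusted permutation p = 0.0044), rho = 0.78 (adjusted permutation p = 0.0216) and within-slide values of 0.87 and 0.81. With macrophage genes r was 0.81 (permutation p = 0.00014, adjusted permutation p = 0.0044), rho 0.76 (adjusted permutation p = 0.0243), and r within slides 0.88 and 0.70. Without the 2 farthest arrays these were 0.65 and 0.66. All 13 blood endothelial genes were well above background on all arrays, with means from -0.71 to 0.66 (B6) and from -0.31 to 0.85 (Wsh). The macrophage means were -1.40 to 1.13 (B6) and -0.70 to 1.50 (Wsh). Wsh replicate 1 had the highest mean of the lymphatic partner, blood endothelium, fibroblast and macrophage lists and the lowest luminal mean, -0.51, and Lyve1 had r = -0.67 with the luminal mean (adjusted permutation p = 0.0546, rho = -0.47).

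Of the lists that form clusters, the fibroblast genes gave the highest r with Lyve1. Over the 12 arrays below the gap in the fibroblast mean, r was 0.93 (adjusted permutation p = 0.0003 over 30 such relations, from the smallest p that the permutations can give, 1e-05). The rho was 0.91 (adjusted permutation p = 0.0051). Those arrays ran from -0.95 to 0.20 in fibroblast mean and the remaining 3 from 0.80 to 0.82. Prox1 gave 0.76 over the same 12 arrays (adjusted permutation p = 0.0315, rho = 0.61, adjusted permutation p = 0.209) and Chst4 0.72 (adjusted permutation p = 0.0315, rho = 0.50, adjusted permutation p = 0.370). Without B6 replicate 3, which had the lowest fibroblast mean and where Chst4 was not well above background (-6.14), r was 0.55 for Chst4, 0.66 for Prox1 and 0.91 for Lyve1, with no test. Leaving out single arrays was added after the data were seen. Lyve1 also had r = 0.72 with adipocyte genes over 14 arrays and 0.77 with skeletal muscle genes over 10 (adjusted permutation p = 0.0315 each), but the rho of 0.64 and 0.76 did not pass (adjusted permutation p = 0.151 each). With the fibroblast mean held, an alternative added after the data were seen, the Lyve1 slope on the B cell score was -0.01 (limma adjusted p = 0.960), against 0.26 without it. Within the 7 lower and the 8 upper arrays of the B cell score, Lyve1 had r = 0.22 and 0.45 with the score, and neither passed in exact permutation tests (adjusted p = 0.881 and 0.752).

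**Figure D4:**
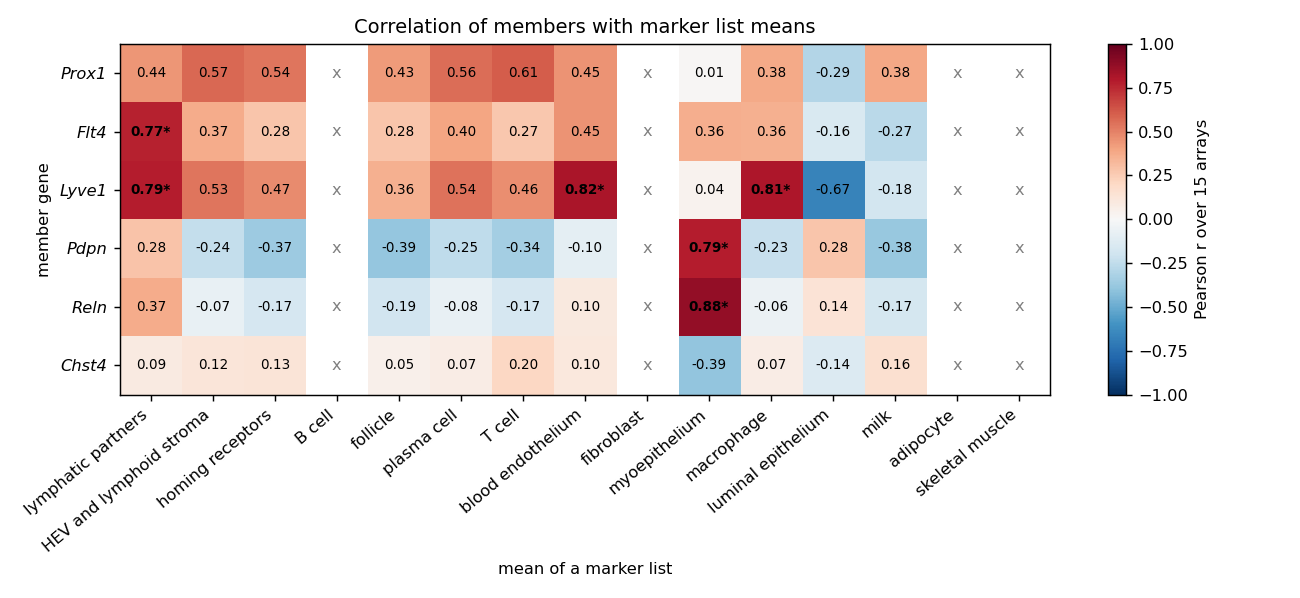
Pearson r over 15 arrays between each of 6 members (rows) and the mean of each marker list (columns), coloured from -1 to 1, with an asterisk for adjusted permutation p under 0.05 and x for lists whose arrays form separate clusters. The asterisks stand at Flt4 and Lyve1 with lymphatic partners, Lyve1 with blood endothelium and macrophages, and Pdpn and Reln with myoepithelium.

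Pdpn and Reln followed each other and the myoepithelial genes. Between the pair, r was 0.81 (permutation p = 0.0002, adjusted permutation p = 0.002 over 10 pairs) and rho 0.84 (adjusted permutation p = 0.002). Without the 2 farthest arrays r was 0.75, and it was 0.51 on slide 1 and 0.88 on slide 2. The 5 pairs with Chst4 were left out, since its values fell into clusters. Its relations with list means were kept, since there only the list mean was checked for clusters. None of the 9 other pairs passed, and the highest r among them was 0.50 for Flt4 with Reln (adjusted permutation p = 0.261). With the mean of 8 myoepithelial genes (Krt14, Krt5, Krt17, Acta2, Myh11, Trp63, Cnn1 and Oxtr), Reln had r = 0.88 (permutation p = 4e-05, adjusted permutation p = 0.00264) and rho = 0.85 (adjusted permutation p = 0.00726). The values within slides were 0.61 and 0.96, and 0.82 without the 2 farthest arrays. Pdpn had r = 0.79 with that mean (permutation p = 0.00054, adjusted permutation p = 0.00713), but its rho of 0.66 did not pass (adjusted permutation p = 0.0914), and r was 0.40 on slide 1 and 0.89 on slide 2. All 8 myoepithelial genes were well above background on all arrays, with means from -1.03 to 0.995 (B6) and from -0.52 to 0.88 (Wsh). The next brightest Reln probe was well above background on 10 arrays only. Over all 15 arrays it had r = 0.67 with the first probe, 0.55 with the myoepithelial mean and 0.56 with the lymphatic partners, all as descriptions. With the lymphatic partners Pdpn had r = 0.28, and the first Reln probe 0.37. The difference between these correlations was not tested.

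**Figure D5:**
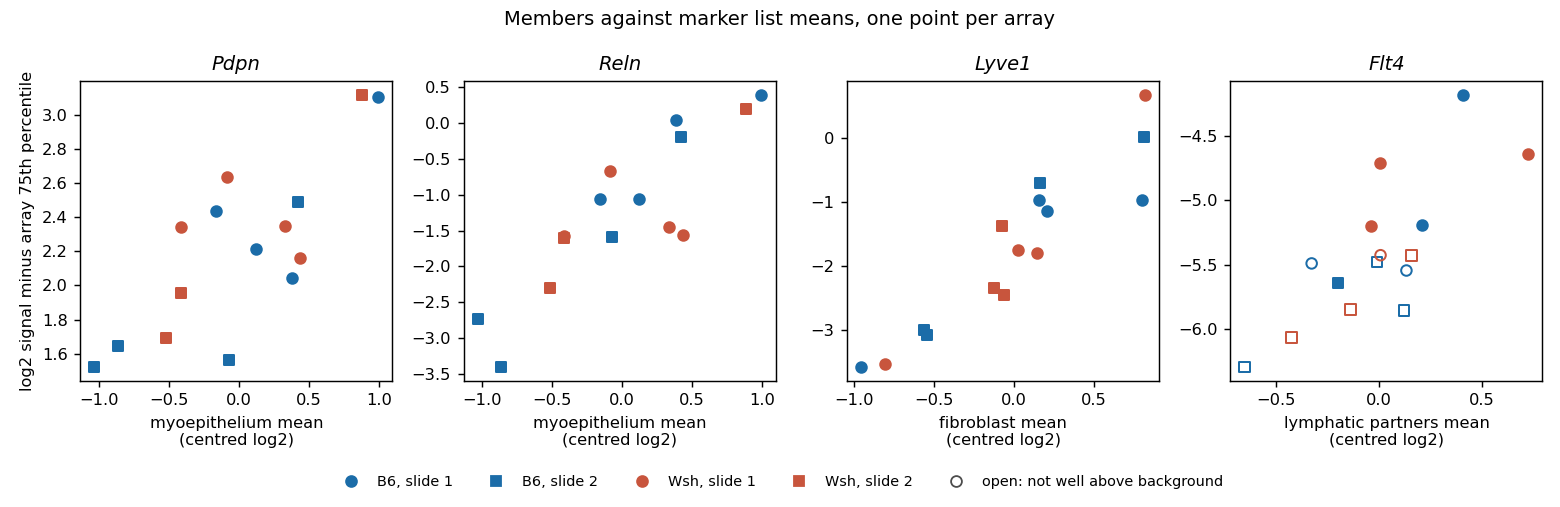
Log2 signal minus the array's 75th percentile (vertical axis) of Pdpn and Reln against the myoepithelial mean, of Lyve1 against the fibroblast mean and of Flt4 against the lymphatic partner mean (horizontal axes, centred log2), 1 point per array, with colours for groups, circles and squares for slides and open symbols for probes not well above background. B6 replicate 3 and Wsh replicate 5 stand at the upper right for both Pdpn (3.1 and 3.12) and Reln (0.40 and 0.20), and the 3 arrays with the highest fibroblast mean hold Lyve1 values of -0.97, 0.02 and 0.68.

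Since Pdpn and Reln moved together, the 250 bases before their start sites are shown from RefSeq's table for GRCm38.p6, with GC boxes (GGGCGG, both strands) in capitals.
Pdpn: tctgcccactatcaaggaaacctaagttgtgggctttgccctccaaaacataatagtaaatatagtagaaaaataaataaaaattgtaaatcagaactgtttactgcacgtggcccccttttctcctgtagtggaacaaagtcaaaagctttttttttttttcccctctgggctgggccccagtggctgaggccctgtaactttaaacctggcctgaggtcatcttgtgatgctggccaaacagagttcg
Reln: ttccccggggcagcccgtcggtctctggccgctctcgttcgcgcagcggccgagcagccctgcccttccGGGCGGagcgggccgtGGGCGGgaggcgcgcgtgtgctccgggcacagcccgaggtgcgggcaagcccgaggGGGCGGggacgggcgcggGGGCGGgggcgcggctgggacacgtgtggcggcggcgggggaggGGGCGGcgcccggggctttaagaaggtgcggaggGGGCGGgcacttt
The Pdpn window is chr4:143299565-143299814 and the Reln window chr5:22344706-22344955, both on the minus strand. The Reln window was 80.0% G and C and held 6 GC boxes, at 181, 165, 109, 91, 47 and 13 bases before the start. The Pdpn window was 43.2% G and C and held 0, beside a median of 52.4% over 32851 windows, of which 32.7% hold a GC box. Neither window held a TATAAA, which 12.4% of windows do, nor a CCAAT, which 33.8% do. These letters are descriptions of the windows and not sites of binding.

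The genes whose values were most like each member over the 15 arrays, by Pearson r among all genes tested, differed between members. For Lyve1 they were She (0.951), Cnrip1 (0.942) and Loxl1 (0.939). For Pdpn they were Adgrb2 (0.910), Sobp (0.909) and Id4 (0.899), and for Reln they were Irx4 (0.914), Tgfb1i1 (0.910) and Klhl29 (0.909). For Prox1 they were Olfr1507 (0.854), Trgv1 (0.825) and Pola2 (0.789), and for Chst4 St6gal2 (0.843), BC106175 (0.839) and Olfr1564 (0.824). Most of these are dim. Olfr1507 was well above background on 2 B6 and 5 Wsh arrays and Trgv1 on 4 and 7. The counts were 4 and 5 for St6gal2, 5 and 7 for BC106175, and 5 and 4 for Olfr1564. These r values therefore rest partly on signal near background. For Flt4 they were Itga5 (0.836), Reep2 (0.833) and Foxc2 (0.823), the last of which is also on the list of lymphatic partners. Reep2 was well above background on 6 B6 and 4 Wsh arrays, and Foxc2 on 3 and 4. The r values of all these genes were the highest of 22342 correlations and carry no test.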

How the data were processed

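Total RNA of each tumour was amplified, labelled with Cy3 and hybridised, per the labels' protocols. The deposited intensity is the processed signal of Agilent Feature Extraction 10.7.3.1, which per the file headers is background-subtracted and detrended within the array and not normalized between arrays. The authors also deposited a log2 table, whose background step, scaling and centring are not given in the sources used (limma is named in the submitters' processing notes), and it served as an alternative.

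Of 62976 spots per array 59305 were not controls, carrying 56605 probes. Probes were kept when 7 or more of the 15 arrays had them well above background (34346), and a gene was its kept probe of highest mean (22342 genes). Values are log2 processed signal minus the array's 75th percentile. Tests used limma 3.58.1 in R 4.3.3 (lmFit, eBayes, two-sided, Benjamini-Hochberg over all genes, threshold 0.05), and correlations used scipy 1.17.1 with two-sided permutation tests (exact for 8 or fewer arrays). A list mean is the mean of its measured genes, each centred over the 15 arrays, and no pooled r is given where its largest gap between arrays is large (over 33.3% of its range). The steps were tested on simulated data. Figures used matplotlib 3.10.9.

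The members and lists were chosen with earlier results of these data known. Named genes are the 7 members, of each list up to 4 genes past the threshold by largest absolute moderated t, and the 3 genes best correlated with each member. Some genes that this rule names are not reported here. Other genes of the lists were named after their values were seen. Of all probes, 32994 were named through an accession, 10224 through a symbol and 520 through a synonym of a RefSeq table, and 12867 kept the files' name. Promoter windows were found for 6 of 7 genes. List genes not tested were Ccl21b, Sele, Blk, Tnfrsf17 and Ckm.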

Additional observations from a re-analysis of the deposited data

Results flagged for a closer look

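In 3 of 70 groups of values looked at, a single array lay far from the others of its group, and chance alone flags about 1 in 20 such groups. All 3 were in Wsh replicate 1, the array with the highest B cell score (3.06) and the highest Lyve1 value. There Ccl21a, the lymphatic and lymph node chemokine, was at 3.63, with the next Wsh array at 1.68. Stab2, the hyaluronan scavenger receptor, was at -1.37, with the next at -3.37. Pecam1, an adhesion molecule of all endothelium, was at -1.59, with the next at -2.54.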

How the results depend on the processing

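Over 164 alternative values of the members' Wsh minus B6 differences and 179 of their slopes, 0 passed the threshold, and 13 and 19 changed sign. The reversed differences were Lyve1 on slide 1 (0.066), Pdpn on slide 1 (-0.077), Reln with the mean of its probes (0.23) and on slide 2 (0.75), and Chst4 with normexp background correction (-0.014) and on slide 2 (-0.13). With 1 array left out, the differences ran from -0.53 to 0.18 for Lyve1, -0.39 to 0.15 for Reln, 0.31 to 0.51 for Prox1, 0.06 to 0.33 for Pdpn and 0.08 to 0.31 for Chst4. Reversed slopes came with adipocyte and skeletal muscle covariates (Pdpn 0.054, Reln 0.21, Chst4 -0.18), the myoepithelium covariate (Reln 0.013, Chst4 -0.010), the fibroblast covariate (Lyve1 -0.011, Chst4 -0.0081), and the 7 arrays below the gap in the B cell score (Prox1 -0.090, Jchain -1.57). Over the 8 arrays above it Cd68 gave -0.0092. The Chst4 slope was also reversed with normexp (-0.020), quantile normalization (-0.038), scaling by the median (-0.024), array weights (-0.024) and the deposited values (-0.039), and ran from -0.036 to 0.035 with 1 array left out. Scaling by the median moved the median difference of all genes to -0.11.

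Same-numbered arrays of the groups did not deviate together (r from -0.24 to 0.21). Whether they share more than a number is not in the labels. With the replicate block 0 members were called in either comparison. Their slopes were -0.10 for Prox1, -0.024 for Lyve1 and -0.13 for Chst4, and the all-gene counts were 15 differences and 26 slopes against 75 and 985. Glycam1 passed (1.75, limma adjusted p = 0.0462), and Ltb (0.68, limma adjusted p = 0.0708), Lta (0.66, limma adjusted p = 0.134) and Cxcl13 (1.22, limma adjusted p = 0.567) did not.

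Each of the 7 relations called over all arrays fell short within 1 slide, with fewer arrays in the test. On slide 1 and slide 2 the adjusted exact permutation p and r were, for Flt4 with lymphatic partners, 0.339 (0.65) and 0.363 (0.83). For Lyve1 they were 0.159 (0.91) and 0.468 (0.76) with lymphatic partners, 0.159 (0.87) and 0.363 (0.81) with blood endothelium, and 0.159 (0.88) and 0.501 (0.70) with macrophages. With myoepithelium they were 0.466 (0.40) and 0.255 (0.89) for Pdpn and 0.346 (0.61) and 0.0917 (0.96) for Reln. Pdpn with Reln gave 0.459 (0.51) and 0.0595 (0.88). With 1 array left out, r ran from 0.70 to 0.82 for Flt4, from 0.69 to 0.84, 0.74 to 0.90 and 0.74 to 0.86 for Lyve1 with these lists in turn, from 0.72 to 0.83 for Pdpn and 0.85 to 0.92 for Reln with myoepithelium, and from 0.77 to 0.90 for the pair. Flt4 was not measured under the filter on all 15 arrays. Signal near background limits Flt4, Chst4 and Madcam1.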
